A study of Mus musculus with 8 samples.

Results

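The extracellular matrix genes described here are the collagen chains, the laminin chains and a set of matrix glycoproteins and proteoglycans, measured in mouse cortical neurospheres. Probes were taken by gene symbol from the platform's annotation: every collagen chain, every laminin chain, and Fn1, Tnc, Tnr, Nid1, Nid2, Sparc, Dcn, Bgn, Lum, Thbs1, Thbs2, Fbln1, Fbln2, Agrn, Hspg2 and Reln. The annotation lists no probe under 3 further symbols of the rule, Spp1, Vcan and Fbn1. The rule found 78 probes of 66 genes, of 21582 probes and 15094 gene symbols in all. A log2 ratio on at least 3 arrays of each dye orientation was required for a test, and 37 probes of 31 genes met this and are called measured below.

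Neurospheres are clusters of neural stem and progenitor cells that grow in suspension. They came from mouse cortex of gestational day 12.5 and were kept in medium with the growth factors bFGF and EGF (20 ng/ml each) and the cytokine LIF (0.15 ng/ml). Exposed cultures met ethanol at 320 mg/dl for 5 days in this medium and were then differentiated for 3 days without ethanol by withdrawal of EGF and LIF, while control cultures were differentiated by the same withdrawal with no ethanol before it. Control and exposed RNA were hybridised together on 8 two-colour arrays, with exposed RNA in Cy3 on replicates 1 to 4 (the Cy3 arrays below) and in Cy5 on replicates 5 to 8 (the Cy5 arrays). No strain, sex or number of animals is given in the sources used here, and whether any arrays share a culture is not stated, so p-values measure the spread between arrays, which may be technical.

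Collagens form fibrils, networks or filaments, and laminins are trimers of an alpha, a beta and a gamma chain that polymerise on cell surfaces. Together with type IV collagen, nidogens, perlecan and agrin, laminins build the basement membrane, to which radial glia attach at the surface of the developing cortex. Brain tissue itself holds little fibrillar collagen, and its matrix is rich in tenascins, reelin and hyaluronan-binding proteoglycans.

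The numerator of the ratios, by condition or by dye, is not stated in the labels. Each probe's values, after each array's median was set to 0, were therefore split into a shared part, the mean of both orientations, and a turning part, which changes sign with the orientation and is positive where the Cy5 arrays read higher. If all ratios run the same way, one of these parts holds the ethanol difference and the other the dye difference, and which is which is not known. No sign below therefore gives the direction of an ethanol difference. All values are log2 ratios or differences between them, and none is an expression level.

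Collagen probes often gave no ratio. Of 44 collagen probes 14 (31.8%) met the requirement for a test, against 10 of 13 laminin probes (76.9%), 13 of 21 probes of the other glycoproteins (61.9%) and 71.1% of all probes. Among the fibril-forming collagens only Col3a1 and Col11a1 were measured, and 9 of 11 genes were not: Col1a1, Col1a2, Col2a1, Col5a1, Col5a2, Col5a3, Col11a2, Col24a1 and Col27a1. Col1a1 and Col1a2, the chains of the main fibrillar collagen of connective tissue, had ratios on 4 and 3 arrays. The chains Col4a1 and Col4a2 of the common basement membrane collagen had them on 2 and 6 arrays. Col15a1 was not measured either, nor were 6 of 8 fibril-associated genes (Col9a1, Col9a2, Col9a3, Col12a1, Col19a1 and Col22a1). The same held for 6 of 8 genes of the beaded-filament, anchoring and short-chain types (Col6a1, Col6a3, Col6a4, Col7a1, Col8a1 and Col8a2), and for Col13a1, Col17a1 and Col25a1 of the membrane-spanning ones. Outside the collagens the missing genes were Lama5, Lamc3, Hspg2, Thbs1, Thbs2, Lum, Fbln1 and Fbln2. Lum and Hspg2, which encode lumican and perlecan, had a ratio on 1 array each, and Col8a2 on none. The plot of coverage shows 27 of 44 collagen probes at 3 to 6 arrays.

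**Figure D1:**
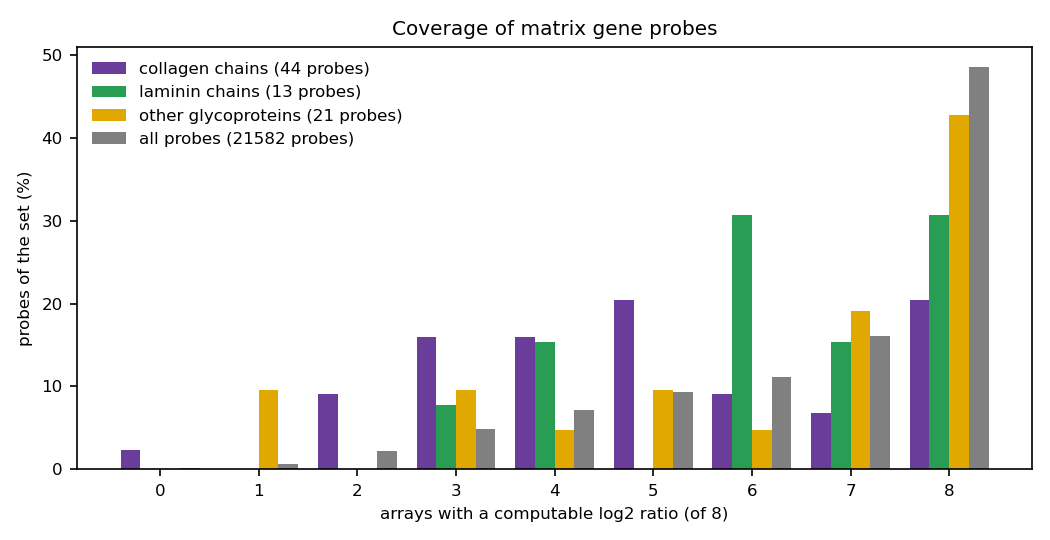
Share of probes (vertical axis, %) by the number of arrays with a computable log2 ratio (horizontal axis, of 8), for collagen, laminin and other matrix glycoprotein probes and for all probes on the array. A ratio on 8 arrays was computable for 20.5% of collagen probes, 30.8% of laminin probes, 42.9% of the others and 48.6% of all probes.

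The ratios that collagen probes did give were often coarse. Each array's deposited values carry a constant, described with the processing below. A value was counted as coarse when, with that constant taken off, it equalled the log2 of a quotient of 2 whole numbers from 1 to 4. The quotient was rounded to 0.001, and a distance of up to 0.0011 on the log2 scale was allowed. This held for 37 of 219 collagen values (16.9%), 10 of 81 laminin values (12.3%), 11 of 128 values of the other glycoproteins (8.59%) and 7.24% of the values of all probes. Over all probes the coarse share was 2.54% where a ratio was computable on 8 arrays and 25.6% where it was computable on 3, so coarse values were more frequent on probes with missing ones. Lama4 and Lamb3 held 3 coarse values each, more than any other measured probe of the set, and Dcn and Col4a3 held 2 each. No intensities were used here, so neither share can be set against the brightness of a spot, and a probe without a ratio says nothing of how the gene was expressed in the culture.

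No matrix gene differed past the threshold in either part. In the shared part 0 of 37 probes had an adjusted p under 0.05 (limma, Benjamini-Hochberg over 15345 probes), as for 0.0% of all probes tested, and the smallest adjusted p was 0.268. At an unadjusted p under 0.05 there were 2 of 37, Lamb1 and Col4a5, both negative, a share of 5.41% against 13.9% of all probes (9.01% negative and 4.88% positive). The count was 0 without replicate 2, 1 without replicate 7, 3 without replicate 4 and 4 without the arrays whose code ends in r (replicates 3, 4 and 8). In the turning part 0 of 37 passed, against 1.56% of all probes, and 1 probe, Lamb2, had an unadjusted p under 0.05 (2.70% against 13.8% of all probes, of which 8.69% positive and 5.14% negative). This count was 5 without replicate 2, 3 without replicate 3, 4 without the arrays whose code ends in r, 1 without replicate 7 and 2 without any other single array. A fit with robust variance and one with a random block also gave 0 in each part. The median SD between arrays of the same orientation was 1.45 for them and 1.25 for all probes tested. It was 1.77 for the collagens, 1.66 for the laminins and 1.08 for the other glycoproteins, and among probes with values on 8 arrays it was 1.19 for the set and 1.12 for all.

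The 95% intervals show what these arrays could not exclude. Their half-widths ran from 0.68 for Fn1 to 1.84 for Col4a4, with a median of 1.15. Intervals lay wholly within a 4-fold difference for 28 of 37 probes in each part, and within a 2-fold difference for 5 in the shared and 4 in the turning part. A p that misses the threshold therefore does not show that a gene was the same in both cultures.

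**Figure D2:**
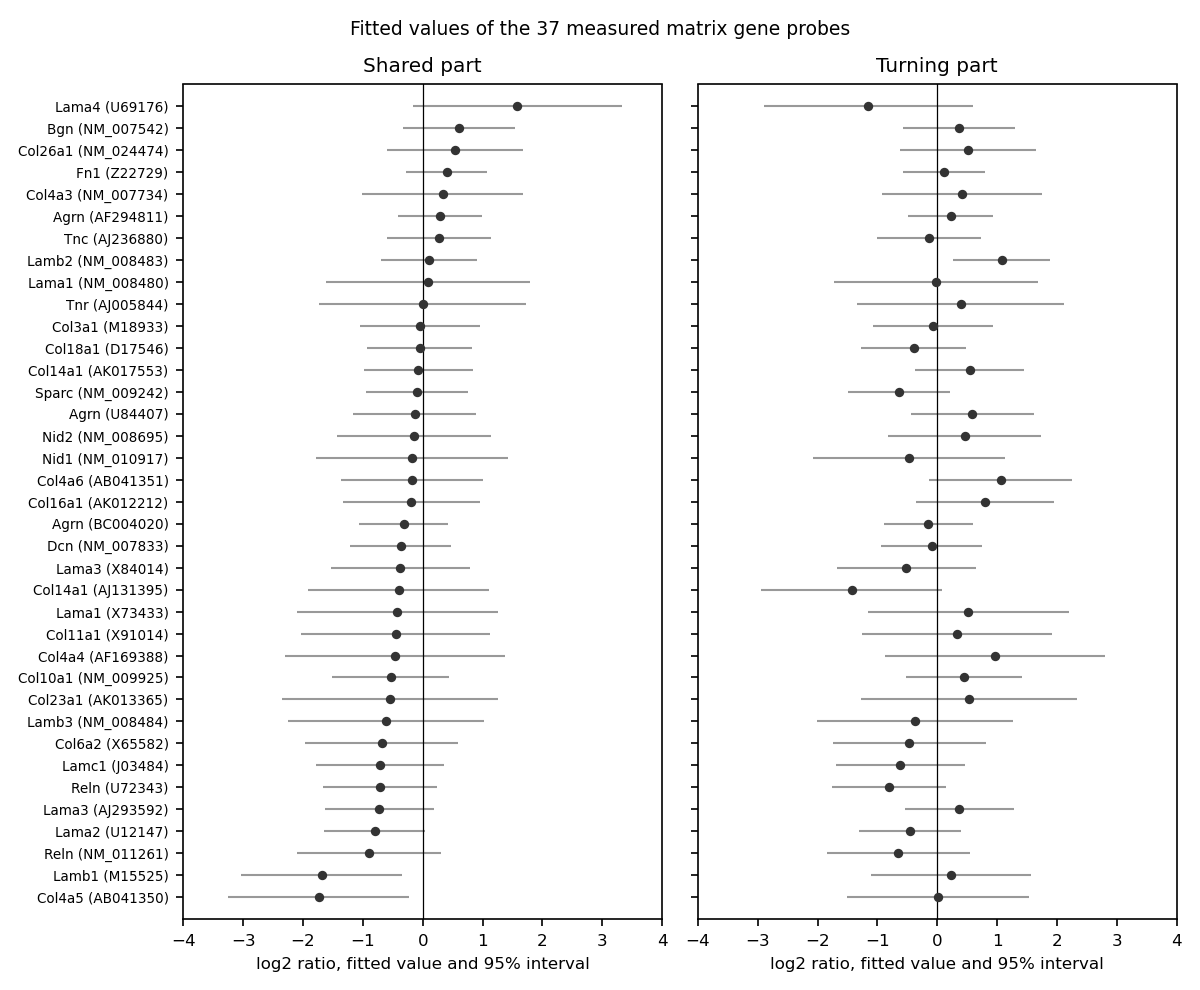
Fitted shared part (left) and turning part (right) of the 37 measured matrix gene probes, as log2 ratios with 95% intervals from the limma fit (horizontal axis), in order of the shared part. In the shared part 35 intervals hold 0 and in the turning part 36, and 27 of 37 shared parts but only 17 of 37 turning parts lie below 0.

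Most matrix probes had a shared part slightly below 0. The sign was negative for 27 of 37 probes (73.0%, against 53.9% of all probes tested) and positive for 10 (27.0% against 46.1%), with a median of -0.19 against -0.06. Without replicate 2 the median was -0.04, and without the arrays whose code ends in r it was -0.43. Array by array, the median value of the measured matrix probes was -0.31, -1.05, 0.38 and 0.03 on the Cy3 arrays. On the Cy5 arrays it was -0.55, -0.45, -0.21 and -0.47, while the medians of all probes tested lay between -0.15 and 0.14 over the arrays. By class, 12 of 14 collagen probes, 7 of 10 laminin probes and 8 of 13 others were negative, with medians of -0.29, -0.52 and -0.13. In the turning part 20 of 37 were positive (54.1%, against 56.9% of all probes) and 17 negative (45.9% against 43.1%), with a median of 0.11, as for all probes tested, and medians of 0.43 for collagens, -0.20 for laminins and -0.09 for the others. A difference of at least 2-fold was fitted for 3 of 37 in the shared part (8.11% against 15.2% of all probes) and for 4 of 37 in the turning part (10.8% against 15.6%). Values of 1 sign on all their arrays were found for 0 of 37 (3.57% of all probes), and opposite signs in the 2 orientations on all arrays also for 0 (4.29%).

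Among the basement membrane genes, the laminin chain Lamb1, a beta chain of the embryonic laminins, had the smallest p of the set in the shared part. It read -1.24, -3.45, -1.12 and -1.89 on the Cy3 arrays and -1.11, -1.21, -4.93 and 1.42 on the Cy5 arrays. It was thus below the array median on 7 of 8 arrays, with replicate 8 above it. The shared part was -1.69 ± 0.60 (SE of the fit, n = 8 arrays, limma unadjusted p = 0.0182, adjusted p = 0.268), and between -2.17 and -1.11 when single arrays were left out. The value nearest 0 came without replicate 7.

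Lamb2, the beta chain of synaptic, retinal and glomerular basement membranes, had the smallest p in the turning part. It read -0.89, -2.51, 0.67 and -1.17 on the Cy3 arrays against 1.25, 0.99, 1.56 and 0.92 on the Cy5 arrays. The orientations did not overlap, which held for 2 of 37 matrix probes and for 10.9% of all probes tested, with the Cy5 arrays higher for 5.68%. The turning part was 1.08 ± 0.36 (n = 8 arrays, limma unadjusted p = 0.014, adjusted p = 0.214). With the values as deposited, not centred, it was 1.40 with an adjusted p of 0.0793 by limma. In that setting the median turning part of all probes tested also rose, from 0.11 to 0.42, and the turning calls from 239 to 417. Lamb3, a chain of the laminin of skin, read between -4.44 and 1.95 over 7 arrays, with parts of -0.61 and -0.37.

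The alpha chains had shared parts of both signs. Lama2, the alpha chain of muscle and peripheral nerve basement membranes, read -1.08, -0.78, -0.07 and 0.55 on the Cy3 arrays and -0.30, -1.01, -3.12 and -0.62 on the Cy5 arrays. It was negative on 7 of 8 arrays, with a shared part of -0.81 ± 0.38 (adjusted p = 0.381 by limma), or -0.50 without replicate 7. Lama4, the alpha chain of vessel walls, read 4.82, 3.17 and 0.20 on 3 Cy3 arrays and 3.07, -0.05 and -1.72 on 3 Cy5 arrays. Its shared part of 1.58 ± 0.76 was the highest of the set and rested on 6 values, 3 of them coarse (adjusted p = 0.397 by limma). Without the arrays whose code ends in r it was 3.17, with replicate 1 as the only Cy3 value left, and without replicate 5 it was 0.92.

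Lama3, an alpha chain of epithelial laminins, and Lama1, the alpha chain of the earliest embryonic laminin, each had 2 measured probes. Lama3 probe AJ293592 read -2.66, -0.39, -0.82 and -0.52 on the Cy3 arrays and -1.50, 0.67, -1.42 and 0.82 on the Cy5 arrays. Its partner X84014 read -1.69, 1.58 and 0.52 on replicates 2 to 4 and -1.88, -0.52 and -0.27 on replicates 6 to 8. The Lama3 probes had the same sign on 2 of 6 arrays, and their shared parts were -0.73 (-0.47 without replicate 1) and -0.38. Lama1 probe NM_008480 read -0.67, -0.39 and 1.38 on replicates 1, 2 and 4 and 3.63, -1.53 and -1.89 on replicates 5, 6 and 8. Lama1 probe X73433 read -0.62, 0.14 and -2.35 on replicates 1, 3 and 4 and 0.82, -3.15 and 2.60 on replicates 5 to 7. Both Lama1 probes thus scattered on either side of 0 in both orientations, with shared parts of 0.09 ± 0.74 and -0.43 ± 0.73.

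Lamc1, the gamma chain of most laminins, read 0.80, -2.47, 1.25 and 0.02 on the Cy3 arrays and -1.33, -1.85 and -0.81 on replicates 5, 7 and 8. All 3 Cy5 values were negative, but replicate 2 lay below each of them, so the orientations overlapped. On replicate 6 Lamc1 held the array's highest entry, which was taken as a ratio that could not be computed. With that entry kept as a value, the shared part went from -0.72 to 1.44 and the turning part from -0.62 to 1.57, neither past the threshold.

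The type IV collagen chains Col4a5 and Col4a6 belong to basement membranes of kidney, skin and smooth muscle, and their genes lie head to head on the X chromosome. In RefSeq (GRCm38.p6) their start sites are 1343 bp apart on opposite strands. Both promoter windows, 300 bases that end shortly past the start, are shown because these neighbours can be compared array by array, 5′ to 3′ on the strand of the gene. Motifs were searched for on both strands and are in capitals: the TATA box TATAAA, the CCAAT box CCAAT and the GC box GGGCGG. No matches overlapped. Col4a5 is at chrX:141475169-141475468 (plus strand) and Col4a6 at chrX:141474027-141474326 (minus strand).
Col4a5: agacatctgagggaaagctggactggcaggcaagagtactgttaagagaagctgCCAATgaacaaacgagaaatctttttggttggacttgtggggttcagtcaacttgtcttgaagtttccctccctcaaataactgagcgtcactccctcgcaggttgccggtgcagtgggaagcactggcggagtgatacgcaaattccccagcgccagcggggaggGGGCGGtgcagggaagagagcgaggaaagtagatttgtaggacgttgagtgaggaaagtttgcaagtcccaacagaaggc
Col4a6: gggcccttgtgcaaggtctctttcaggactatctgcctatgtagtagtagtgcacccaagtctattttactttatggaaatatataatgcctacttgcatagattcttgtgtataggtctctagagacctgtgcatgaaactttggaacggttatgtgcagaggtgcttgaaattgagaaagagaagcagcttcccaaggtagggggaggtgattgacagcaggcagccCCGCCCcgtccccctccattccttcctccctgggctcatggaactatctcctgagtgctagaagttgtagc
The Col4a5 window holds 1 CCAAT box and 1 GC box, and the Col4a6 window 1 GC box on the opposite strand. Neither holds TATAAA. Among all 32851 windows of this kind, 37.4% hold CCAAT, 35.7% GGGCGG and 13.6% TATAAA on either strand. A match is only a match of letters in this window.

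Col4a5 read 0.60, -3.85, -1.11 and -2.64 on the Cy3 arrays and -2.0, 2.05, -3.95 and -3.02 on the Cy5 arrays. It was negative on 6 of 8 arrays and above the median on replicates 1 and 6. The shared part of -1.74 ± 0.68 was the lowest of the set (n = 8, limma unadjusted p = 0.0284, adjusted p = 0.307). Col4a6 read -1.38, -1.27, -1.81 and -0.49 on the Cy3 arrays and 1.05, 3.14 and -1.56 on replicates 5, 7 and 8. Its Cy3 values were all negative, and replicate 8 fell among them. The turning part was 1.06 ± 0.53 (n = 7, adjusted p = 0.423 by limma). It was 0.49 without replicate 7, 1.67 without replicate 8 and 1.71 without the arrays whose code ends in r. On the 7 arrays with both, the pair had the same sign on 4, and the median distance between the genes was 2.15. Col4a3 and Col4a4, the other chains of the kidney network, were singled out after their values were seen. They had the same sign on 3 of 7 arrays, a median distance of 2.27, and shared parts of 0.33 ± 0.60 and -0.46 ± 0.81.

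The linkers of the basement membrane had shared parts near 0, those of the nidogens with wide errors. Agrn encodes agrin, a heparan sulphate proteoglycan that organises the neuromuscular junction, and had 3 measured probes. Probe AF294811 read -0.02, 0.66, -0.40 and 0.03 on the Cy3 arrays and 1.66, 0.67, -0.33 and 0.06 on the Cy5 arrays. Probe BC004020 read 0.65, -1.45, -0.28 and 0.39 and then -0.75, 0.40, -1.06 and -0.47. Probe U84407 read -1.69, -1.05, -0.64 and 0.51 and then -0.55, 3.08, -0.08 and -0.64. The 3 probes had shared parts of 0.29 ± 0.32, -0.32 ± 0.34 and -0.13 ± 0.46, so the estimates of 1 gene fell on both sides of 0. U84407 stood apart on replicate 6, where the other Agrn probes read 0.67 and 0.40. The nidogens Nid1 and Nid2, which bridge laminin and type IV collagen, read -0.18 ± 0.71 and -0.14 ± 0.58 in the shared part. Col18a1, the source of endostatin, read -0.05 ± 0.39.

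**Figure D3:**
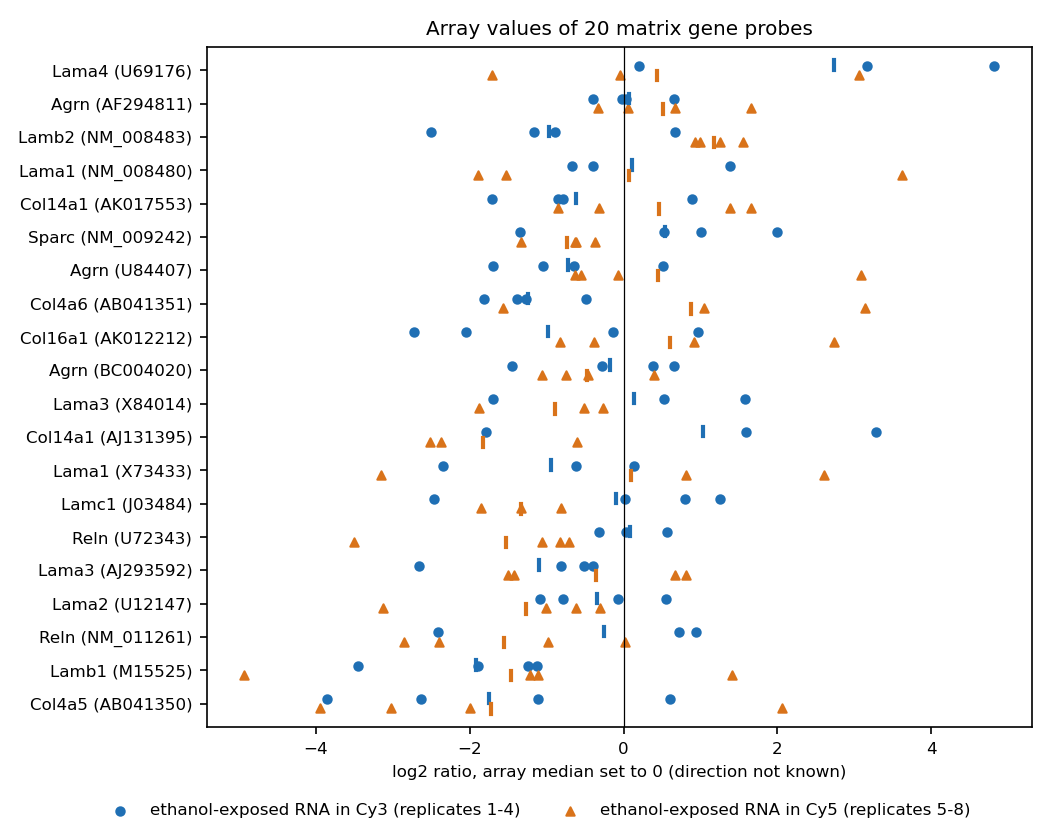
Array values (horizontal axis, log2 ratio with the array median at 0) of the 20 probes described array by array, in order of their shared part. Circles are the 4 arrays with ethanol-exposed RNA in Cy3, triangles the 4 with it in Cy5, and short bars the mean of each orientation; only Lamb2 and Reln probe U72343 keep the orientations apart.

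Among genes of the neural matrix, both Reln probes lay below 0 on every Cy5 array except 1 value near 0. Reln encodes reelin, which Cajal-Retzius cells secrete and which guides the layering of cortical neurons. Probe U72343 read 0.56, 0.03 and -0.32 on replicates 1, 2 and 4 and -3.50, -1.06, -0.82 and -0.72 on the Cy5 arrays. The orientations did not overlap, the other of the 2 such matrix probes, and here the Cy3 arrays were higher, as for 5.21% of all probes tested. Probe NM_011261 read 0.72, -2.41 and 0.94 on replicates 1, 2 and 4 and 0.02, -2.40, -2.86 and -0.98 on the Cy5 arrays, and its orientations overlapped. The Reln probes had the same sign on only 4 of 7 arrays, with a median distance of 1.34. The turning parts were -0.81 ± 0.42 and -0.65 ± 0.53 and the shared parts -0.72 ± 0.42 and -0.90 ± 0.53 (n = 7 arrays each, adjusted p from 0.447 to 0.658 by limma). Both parts kept their sign in both probes under the 17 alternatives in which these were fitted. Without replicate 5 the turning and shared parts of U72343 were -0.48 and -0.39. Without replicate 2 those of NM_011261 were -1.19 and -0.36.

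The tenascins showed no such pattern. Tnc, a glycoprotein of progenitor zones and radial glia, was positive on 6 of 8 arrays, between -1.61 and 1.71, with a shared part of 0.28 ± 0.39. Tnr, the tenascin of perineuronal nets, read between -2.16 and 4.36 over 7 arrays, with an interval from -1.73 to 1.73 around a shared part of 0.00. The reelin receptors Vldlr and Lrp8 and the adaptor Dab1 were all measured. Of their probes 0 of 4 passed in either part, against 0.0% of all probes tested in the shared and 1.56% in the turning part. Vldlr read -0.71 ± 0.48, Lrp8 -0.23 ± 0.30 and the Dab1 probe with the smaller p -0.76 ± 0.52 in the shared part. The other Dab1 probe was of opposite sign there, at 0.20 ± 0.37.

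**Figure D4:**
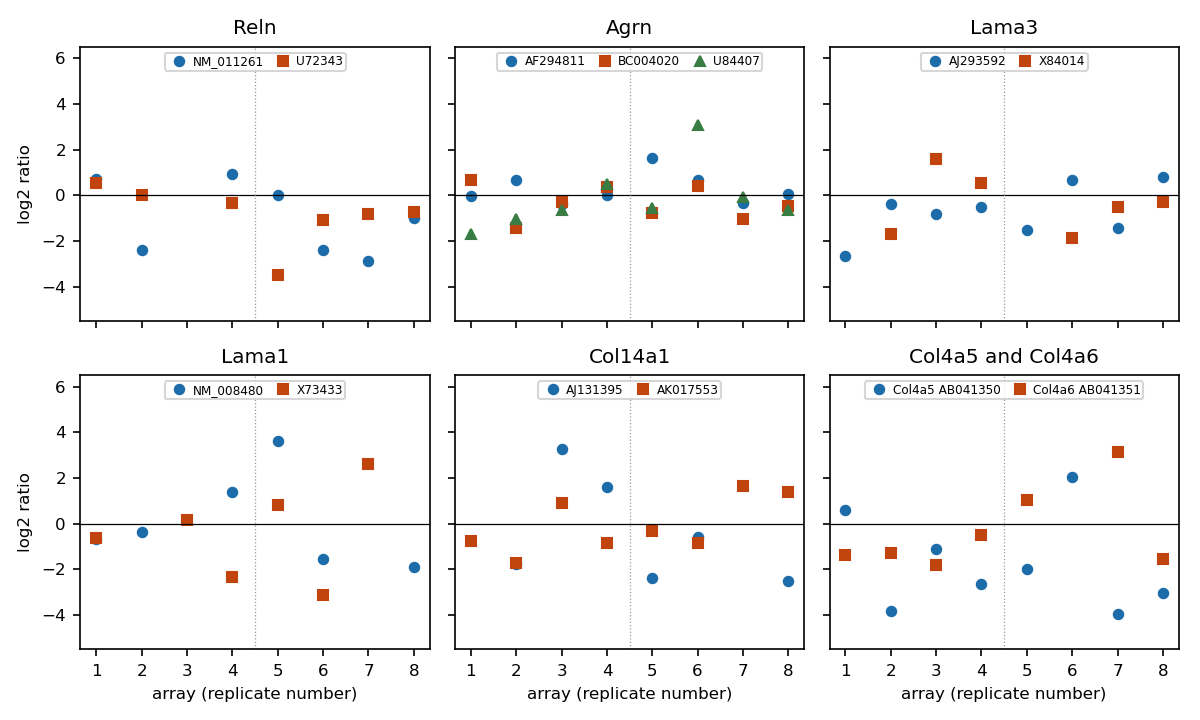
Log2 ratios (vertical axis, array median at 0) on each array (horizontal axis, replicates 1 to 4 with ethanol-exposed RNA in Cy3 left of the dotted line and 5 to 8 with it in Cy5 right of it) for genes with several probes and for the neighbouring genes Col4a5 and Col4a6. Over the 7 pairs of probes of 1 gene, the signs were equal for 29 of 47 array values.

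Probes of the same gene seldom gave the same ratio. Over 5 genes with more than 1 measured probe there were 7 pairs of probes, which share their RNA and arrays, and the signs were equal for 29 of 47 array values. The median distance within a pair ran from 0.38, for a pair of Agrn probes, to 2.23, for Col14a1. Which stretch of the transcript each probe covers is not given in the files used here.

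The 95% intervals of both parts held 0 for the matricellular and collagen-binding genes. Sparc, a secreted regulator of collagen deposition, read 1.00, -1.34, 2.00 and 0.53 on the Cy3 arrays and -0.61, -0.37, -1.33 and -0.63 on the Cy5 arrays. All Cy5 values were negative and 3 of 4 Cy3 values positive, with replicate 2 as low as the lowest Cy5 value, and the turning part was -0.64 ± 0.38 (adjusted p = 0.507 by limma). It was -0.40 without replicate 3, -0.32 with the values as deposited and -0.30 without the arrays whose code ends in r. Fn1, which encodes fibronectin, was positive on 6 of 8 arrays with a shared part of 0.40 ± 0.31 and the narrowest interval of the set, from -0.28 to 1.08. Bgn and Dcn, the small leucine-rich proteoglycans biglycan and decorin, read 0.60 ± 0.42 and -0.37 ± 0.38.

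The remaining collagens scattered widely. Col14a1 and Col16a1 encode collagens that bind to the surface of fibrils. Col14a1 probe AJ131395 read -1.79, 3.28 and 1.60 on replicates 2 to 4 and -2.38, -0.60 and -2.51 on replicates 5, 6 and 8. Probe AK017553 read -0.78, -1.72, 0.89 and -0.85 on the Cy3 arrays and -0.32, -0.85, 1.65 and 1.38 on the Cy5 arrays. Their turning parts were -1.43 ± 0.66 and 0.54 ± 0.41, of opposite sign, and the difference between the probes was not tested. The first was -2.13 without replicate 2, -0.87 without replicate 3 and 0.15 without the arrays whose code ends in r, where the second was 0.70. In that last fit the first probe had replicate 2 as its only Cy3 value. Col16a1 read -2.73, -2.04, 0.97 and -0.14 on the Cy3 arrays and -0.83, -0.38, 0.91 and 2.73 on the Cy5 arrays, and its orientations overlapped. Its turning part of 0.80 ± 0.52 was 0.51 without replicate 1 and 0.44 without replicate 8. Shared parts of the other measured collagens ran from -0.69 ± 0.58 for Col6a2, a chain of beaded filaments, to 0.54 ± 0.50 for Col26a1. Col10a1 (hypertrophic cartilage), Col23a1 (membrane-spanning), Col11a1 and Col3a1 (fibrillar) read -0.54, -0.55, -0.45 and -0.05.

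At the edge of the requirement, 6 probes were measured with just 3 arrays in each orientation, those of Lama1 (2 probes), Lama3, Lama4, Col14a1 and Col23a1, and 13 probes missed it by 1 array. Col5a2, a chain that sits inside collagen I fibrils, was among the 13 and was picked out after its values were seen. It read 1.08, 1.81 and 0.57 on replicates 1, 3 and 4 and 5.43 and 2.54 on replicates 5 and 7, above the median on each of 5 arrays. The means of the other 12 ran from -1.05, for a second Fn1 probe, to 1.08 for Thbs1.

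Genes that make, modify and bind the matrix were described from lists chosen with earlier results of these data known. Of the collagen-processing genes 10 were measured with 12 probes, and 0 passed in either part (0.0% of all probes tested in the shared and 1.56% in the turning part). An unadjusted limma p under 0.05 was found for 4 of 12 in the shared part (13.9% of all probes) and 1 in the turning part (13.8%). The lysyl hydroxylase Plod2, negative on 7 of 7 arrays, read -2.01 ± 0.49 (adjusted p = 0.193 by limma), and the prolyl hydroxylase subunit P4hb, positive on 7 of 8, read 0.91 ± 0.35 (adjusted p = 0.298). The collagen chaperone gene Serpinh1 gave -1.31 ± 0.50 on one probe and -0.39 ± 0.41 on the other, whose turning part was 1.02 ± 0.41. Bmp1 gave the highest shared part of the list, 1.44 ± 0.57, on a probe with 6 values, 2 of them coarse, and -0.07 ± 0.54 on its other probe. Of 14 measured matrix receptors, 0 of 15 probes passed, 10 were negative in the shared part (53.9% of all probes were) and the median was -0.59. The integrin chain Itgav gave -1.85 ± 0.77 on one of its probes and -0.87 ± 0.44 on the other. The first had means of -0.31 on the Cy3 and -3.40 on the Cy5 arrays, with a turning part of -1.54 ± 0.77. The hyaluronan receptor Cd44 read -1.10 ± 0.51 and the laminin receptor chain Itga6 -1.08 ± 0.51 in the shared part. The highest shared parts were 1.16 ± 0.59 for the syndecan Sdc3, 0.71 ± 0.66 for the dystroglycan gene Dag1 and 0.58 ± 0.35 for the fibronectin receptor chain Itga5. Among the lecticans, the hyaluronan-binding proteoglycans of brain matrix, Bcan had a turning part of -3.08 ± 0.60 on 6 arrays, just short of the threshold (adjusted p = 0.0532 by limma), while the turning part was -0.96 ± 0.40 for Acan and 0.26 ± 0.35 and 0.33 ± 0.56 for the Ncan probes.

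Markers of other matrix-making cells showed no called member in either part, against 0.0% of all probes tested in the shared and 1.56% in the turning part. All 8 genes listed for radial glia and progenitors, all 6 for astrocytes and all 7 for endothelium were measured. Of those on the array, 1 of 5 mural and 5 of 7 meningeal fibroblast genes were. In the shared part Rgs5 read -0.15, and Pdgfra, Ptgds, Aldh1a2, Twist1 and Foxc2 read -1.0, 0.78, 0.10, 0.95 and -0.19. Medians of the shared part were 0.10 for meningeal fibroblasts, -0.19 for endothelium, -0.19 for microglia and macrophages, 0.18 for radial glia, -0.66 for astrocytes, -0.56 for neurons, 0.25 for oligodendrocytes and -0.47 for Cajal-Retzius cells. Medians of the turning part, in the same order, were -0.02, 0.03, 0.63, -0.07, 0.07, 0.46, 0.08 and 0.10. A Pax6 probe had the smallest p of the markers there, with 3.82 ± 0.84 (adjusted p = 0.0572 by limma), while the other Pax6 probe read 0.56 ± 0.56. Unadjusted p was also under 0.05 by limma in the turning part of Cdh5 (-1.51 ± 0.39), Flt1 (0.93 ± 0.38), C1qa (1.39 ± 0.38), S100b (1.25 ± 0.36) and Sox10 (1.15 ± 0.43). In the shared part it was under 0.05 by limma for Dcx (-1.88 ± 0.455), S100b (-1.28 ± 0.36), C1qa (-1.24 ± 0.38) and Syt1 (-1.07 ± 0.36). The same held there for Vim (0.98 ± 0.32) and a Slc1a3 probe (-0.98 ± 0.33), whose partner read 0.01 ± 0.29. Of all probes tested, 13.8% had such a p in the turning and 13.9% in the shared part. The measured Cajal-Retzius markers other than Reln were, in the shared part, Lhx5 at -1.23 ± 0.75, Trp73 at -0.47 ± 0.45 and Ebf2 at 0.56 ± 0.32. The part of these cell types in the matrix values was not tested. In a culture, fewer cells of a type and less RNA per cell cannot be told apart.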

How the data were processed

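Each array has a column of log2 ratios, deposited by the authors. Per the labels' protocols, Trizol and RNeasy RNA was labelled by a dendrimer kit. Scanner, background correction, normalization and ratio direction are not stated in these sources. Values below a ratio of 0.1 sat on a grid of ratios rounded to 0.001 plus 1 constant per array (100% on every array, within 0.0011). Each array's highest value equals that constant plus the log2 of 100000. It and exact 0 were taken as not computable, which left 16274 to 18802 values per array. The number of arrays limits the precision.

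Arrays were centred on their medians, which lay between -0.435 and -0.324 on the Cy3 arrays and between 0.023 and 0.516 on the Cy5 arrays. The 15345 probes with 3 or more values per orientation were fitted with limma 3.58.1 in R 4.3.3 (lmFit, eBayes), with the shared and the turning part as coefficients, after a test on simulated data. Adjusted p-values are Benjamini-Hochberg over all 15345. Array values are given for the 8 matrix probes with the smallest p in each part and for genes with 2 or more measured probes. Members, lists and this rule were chosen with earlier results of these data known. Of all probes 16635 had 1 gene symbol, 113 several and 4834 none. RefSeq promoters matched 47 of 66 genes. Arrays that share a code number across orientations correlated at -0.016 to 0.044 in their deviations, so they were not treated as pairs.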

Additional observations from a re-analysis of the deposited data

Results flagged for a closer look

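Of 26 sets of 4 arrays examined among the probes described array by array, 2 held an array whose gap to its nearest neighbour, as a share of the range, passed Dixon's 95% critical value, which by its definition chance passes in about 1 of 20. Agrn probe U84407 stood at 3.08 on replicate 6, with the other Cy5 arrays between -0.64 and -0.08, and its turning part of 0.59 was 0.15 without that array. Reln probe U72343 stood at -3.50 on replicate 5, with the other Cy5 arrays between -1.06 and -0.72. The other Reln probe was at 0.02 on replicate 5.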

How the results depend on the processing

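The count of called matrix probes was 0 in both parts under each of the 18 alternatives, with smallest adjusted p from 0.158 to 0.456 in the shared and from 0.0793 to 0.422 in the turning part. Replicate numbers 1 to 8 are not shared between orientations, and arrays that share a code number did not deviate together, so no pairs were set. With the array code number as a random replicate block (correlation 0.00891) the smallest adjusted p were 0.27 and 0.211. The median shared part was negative throughout, from -0.43 without the r arrays to -0.04 without replicate 2, and -0.18 with 1 probe per gene. The median turning part ran from -0.09 with all probes of 4 or more values to 0.43 with the values as deposited, where the median of all probes also moved, from 0.11 to 0.42. It was -0.02 without replicate 2. Over all probes the count of turning calls was 239, between 84 (without the r arrays) and 417 (values as deposited), and that of shared calls 0, or 1 with the highest values kept. Of the 20 probes described array by array, 9 kept the sign of the shared part and 12 that of the turning part under every alternative in which they were fitted (16 to 18 of 18 per probe). Taking coarse values as missing, an alternative chosen after seeing the data, left 31 probes and 0 calls. The no-filter alternative added 24 matrix probes, with Col5a2 at 2.57 ± 0.58 and Col6a1 at -2.27 ± 0.62 in the shared and turning part, neither past the threshold (adjusted p 0.26 and 0.21). The cause of these shifts was not tested.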

Other observations

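Entries at an array's highest value, taken as not computable, were found in matrix probes on 11 occasions, 6 on Cy3 and 5 on Cy5 arrays. They made up 1.92% and 1.60% of the possible values, against 1.34% and 1.32% for all probes. Replicate 3 held 5 of the 11. Hspg2 had 2 of them, and 1 probe each of Lamc1, Lama3, Lum, Fbln2, Col1a1, Col6a3, Col9a3, Col12a1 and Col23a1 had 1. Without a known direction they do not say which culture gave the signal.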
